A study of Mus musculus with 8 samples.

Results

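The genes described here are 10 carriers that move glucose, lactate or amino acids across the plasma membrane. Members were chosen by gene symbol: Slc2a1 and Slc2a3 for glucose, Slc16a1 and Slc16a3 for lactate and related monocarboxylates, and Slc7a5, Slc3a2, Slc1a5, Slc38a1, Slc38a2 and Slc7a6 for amino acids. Each symbol matched 1 Ensembl ID, so 10 of the 36811 gene models in the deposited expression table are members. All 10 reached 1 FPKM (fragments per kilobase, scaled for the fragments of the library) in every library and were tested among 11260 genes.

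The libraries came from splenic regulatory T (Treg) cells of C57BL/6 mice aged 12 to 13 weeks. All mice had the genotype Foxp3EGFP-DTR Bach2tdRFP/+, in which green fluorescence marks Foxp3-expressing cells and 1 Bach2 allele carries a red fluorescent reporter (RFP). CD4 T cells were enriched and Foxp3-GFP positive cells were sorted by flow cytometry into a Bach2-RFP LO population and a Bach2-RFP HI population. LO and HI each had 4 libraries, labelled F1 and F2 (female) and M1 and M2 (male). Female and male libraries cannot share an animal, but the labels do not say whether libraries of the same sex came from separate animals. Every p-value given is thus relative to the spread among 8 libraries, which may be partly technical.

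Resting T cells import little glucose and few amino acids, and activated T cells raise both. GLUT1 (Slc2a1) and GLUT3 (Slc2a3) let glucose in along its gradient, and MCT1 (Slc16a1) and MCT4 (Slc16a3) carry lactate together with a proton. The heavy chain CD98 (Slc3a2) brings light chains such as LAT1 (Slc7a5) to the cell surface, where LAT1 takes up leucine and other large neutral amino acids in exchange for glutamine. In activated T cells the transcription factor Myc is known to raise several of these carriers, and Hif1a is known to act on glucose and lactate carriers.

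Promoter sequences, from 250 bases before to 50 after the transcription start, were found in RefSeq (build GRCm38.p6) for 6 of the 10 members. The 3 printed here belong to carriers known as targets of Hif1a or Myc, both of which differed between the groups. Capitals mark matches, on either strand, to CACGTG (the E-box that Myc and Max bind) or to ACGTG (the core that Hif1a and Arnt bind, added after the values were seen). An E-box holds an ACGTG on both strands. The Slc2a1 promoter lies at chr4:119108495-119108794, that of Slc16a1 at chr3:104638414-104638713 and that of Slc16a3 at chr11:120948817-120949116, all on the plus strand.
Slc2a1: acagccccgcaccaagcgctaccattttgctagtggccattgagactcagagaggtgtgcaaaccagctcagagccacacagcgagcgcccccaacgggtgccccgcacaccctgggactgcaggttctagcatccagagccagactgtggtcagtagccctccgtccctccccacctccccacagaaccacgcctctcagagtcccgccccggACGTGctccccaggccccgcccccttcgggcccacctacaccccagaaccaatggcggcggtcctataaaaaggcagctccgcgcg
Slc16a1: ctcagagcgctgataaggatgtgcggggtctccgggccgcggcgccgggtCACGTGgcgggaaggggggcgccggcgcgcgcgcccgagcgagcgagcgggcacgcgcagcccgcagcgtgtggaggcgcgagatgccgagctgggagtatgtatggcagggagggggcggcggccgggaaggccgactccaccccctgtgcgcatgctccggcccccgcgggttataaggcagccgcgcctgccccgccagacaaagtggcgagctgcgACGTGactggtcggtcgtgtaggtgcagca
Slc16a3: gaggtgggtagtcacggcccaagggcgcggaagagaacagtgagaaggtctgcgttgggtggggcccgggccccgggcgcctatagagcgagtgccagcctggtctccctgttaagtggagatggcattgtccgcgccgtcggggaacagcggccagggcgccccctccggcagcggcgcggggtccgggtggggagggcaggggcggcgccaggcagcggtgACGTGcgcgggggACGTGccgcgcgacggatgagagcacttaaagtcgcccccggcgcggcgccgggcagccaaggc

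Of these 3 promoters, only that of Slc16a1 held an E-box, 200 bases before the start. An E-box is in 7.15% of the 32851 RefSeq promoters of this length. Slc16a1 also held an ACGTG 20 bases after the start. The promoter of Slc2a1 held 1 ACGTG, 36 bases before the start, and that of Slc16a3 held 2, at 27 and 14 bases before the start. This core is frequent, with 19.6% of promoters holding at least 1 match. TGANTCA, the AP-1 core that is part of the site Bach2 binds, was in 0 of the 6 members' promoters and in 7.81% of all promoters. TGATGNA, the start of the element that Atf4 binds, was in 0 of the 6 and in 12.2% of all. Beyond the 3 printed, the promoters of Slc3a2 and Slc7a6 held an ACGTG, and none of these other promoters held an E-box. These matches describe letters in this window and show no binding. Promoters of Slc2a3, Slc7a5, Slc1a5 and Slc38a1 were not analysed here.

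The sort was checked on Bach2 itself, which had 0.447 to 0.894 FPKM in LO and 8.62 to 20.7 FPKM in HI libraries. Foxp3, the factor that defines Treg cells, had 10.5 to 19.8 FPKM in LO and 13.3 to 15.2 FPKM in HI libraries. Il2ra, the IL-2 receptor alpha chain, was lower in LO cells under all 19 alternatives. Ikzf2 (Helios) was higher in LO cells (limma, adjusted p = 0.0214), a call lost under 5 of 19 alternatives, among them leaving out LO F1, LO F2 or HI F2 (adjusted p up to 0.0704 over all 19). The T cell gene Cd3e had 383 to 431 FPKM in LO and 283 to 378 FPKM in HI libraries. Depth could be read only as a ratio to HI F1, from the smallest values of each library. The shallowest library was HI M1 at 0.636, the deepest was LO M2 at 5.27, and the other 6 lay between 0.818 and 1.27. Markers of other cells differed between the groups. Their calls stand against 4.65% of all tested genes called higher and 3.64% called lower in LO cells. Summed FPKM of 9 B cell markers was 78.2 to 104 in LO and 154 to 265 in HI libraries. Of the 8 tested, 4 were called lower in LO, and Pax5 was listed at 0 in the 4 LO libraries. Of 7 plasmacytoid dendritic cell markers, all tested, 4 were called lower (summed 272 to 367 FPKM in LO, 385 to 642 in HI). The 9 myeloid markers summed to 100 to 261 FPKM in LO and 145 to 329 in HI. Of the 8 tested, 2 were called lower, while 3 had a log2 difference above 0. The call of Fcgr3, 1 of these 2, was lost under 6 of 18 alternatives, among them leaving out HI F1, HI F2 or HI M2. Of 5 NK cell markers (1.21 to 9.53 in LO, 5.59 to 19.2 in HI) 2 were tested. The 1 called, Eomes, had 0 to 0.426 FPKM in LO and 1.67 to 6.75 FPKM in HI libraries and so entered the test through HI alone; its call was lost under 3 of 18 alternatives, among them leaving out LO F2 or HI M2. The 8 plasma cell markers summed to 184.6 to 277 FPKM in LO and 129 to 153 in HI. Of the 7 tested, 2 were called higher, Prdm1 and Jchain, though effector Treg cells also express Prdm1. Another 2 had a log2 difference below 0. Of the 8 markers of cycling cells 8 were higher (313 to 546 FPKM in LO, 42.4 to 61.7 in HI). The 1 tested of 2 CD8 markers (summed 24.2 to 33.6 FPKM in LO, 36.8 to 46.5 in HI) and the 5 tested of 7 erythroid markers (14.1 to 439 in LO, 40.5 to 242.6 in HI) were not called. None of the 5 platelet markers (0 to 4.78 in LO, 0 to 4.48 in HI) reached the filter for testing, and Ppbp and Gp1bb of platelets were listed at 0 in all libraries. The part of these cells in the carrier values was not tested, and in bulk libraries fewer cells of a type and less RNA per cell cannot be told apart.

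None of the 10 carriers passed the test between LO and HI cells, although Slc2a3 came near it. Values were compared as log2(FPKM + 1) with limma, adjusting p over all 11260 genes by Benjamini-Hochberg with a threshold of 0.05. Thus 0 of 10 members were called, against 934 (8.29%) of all tested genes, of which 524 (4.65%) were higher and 410 (3.64%) lower in LO cells. With 10 members, a share of 8.29% is less than 1 gene. Scaling the libraries to an equal sum of FPKM shifted the median of all genes by 0.198 and gave 765 genes higher and 296 lower in LO cells. At an unadjusted p below 0.05, 1 of 10 members passed, against 20.9% of all genes. The 4 LO values lay apart from the 4 HI values in 0 of 10 members, against 15.1% of all genes (7.90% with LO above HI). Median log2 difference (LO minus HI) was -0.030 over the 10 members and -0.026 over all tested genes, with 5 members above 0 and 5 below (Slc2a1 and Slc38a2 turned positive under equal sum scaling). The sum of the 10 members' FPKM was 438 to 552 in LO and 397 to 451 in HI libraries, and these ranges overlapped.

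**Figure D1:**
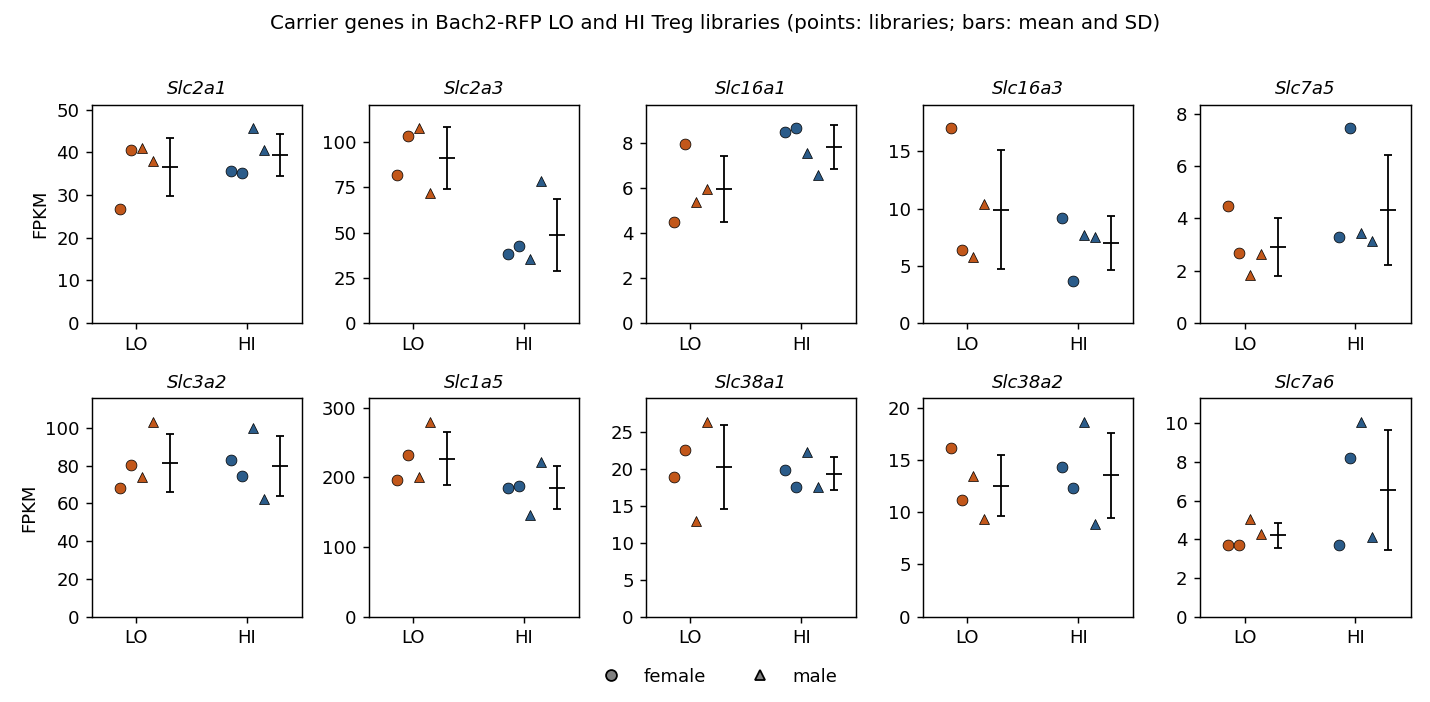
FPKM of the 10 carrier genes in each library, with LO left of HI, females as circles and males as triangles, and the mean with its SD beside the points. Slc2a3 shows 3 HI libraries at 35.3 to 42.6 FPKM below all LO libraries and HI M2 at 78.3 among them; in every other panel the groups overlap too.

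Among the glucose carriers, Slc2a3 had the largest difference of the 10 members and Slc2a1 one near 0. Slc2a3 (ENSMUSG00000003153), the high-affinity carrier GLUT3, had 81.8, 104, 108 and 72.0 FPKM in LO F1, F2, M1 and M2, against 38.0, 42.6, 35.3 and 78.3 FPKM in HI F1, F2, M1 and M2. The 4 LO libraries lay above 3 of the 4 HI libraries, and HI M2 lay above LO M2. Means were 91.3 ± 17.1 FPKM in LO and 48.6 ± 20.1 FPKM in HI cells (SD, n = 4 each), a ratio of 1.88. On the log2 scale LO exceeded HI by 0.95 (standard error 0.265, 95% interval 0.36 to 1.54) with limma, adjusted p = 0.0569 and unadjusted p = 0.00502. A two-sided exact permutation test over the 8 libraries gave p = 0.0571, where 4 against 4 cannot go below 0.0286.

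The call of Slc2a3 depended on 1 library and on scaling. With equal sum scaling it passed (limma, adjusted p = 0.0189). Without HI M2 its log2 difference was 1.2 (limma, adjusted p = 0.00913), and leaving out any other library left it uncalled, with an adjusted p of up to 0.146. HI M2 also had the lowest Bach2 of the HI libraries, at 8.62 FPKM against 13.6 to 20.7 FPKM in HI F1, F2 and M1. Its B cell marker sum of 154 FPKM was the lowest and its plasma cell marker sum of 153 FPKM the highest of the HI libraries, while its cycling sum of 44.3 FPKM lay within their range. Other genes placed HI M2 farther from LO. Prdm1 (1.525 FPKM) and Tpi1 (66.35 FPKM), both higher in LO cells, were at their lowest in HI M2. The part of these values in the Slc2a3 level was not tested.

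Slc2a1 (ENSMUSG00000028645), the widely expressed carrier GLUT1, had 26.7, 40.6, 41.0 and 38.0 FPKM in LO F1, F2, M1 and M2, against 35.7, 35.1, 45.7 and 40.6 FPKM in HI F1, F2, M1 and M2. LO F1 was the lowest of the 8 libraries and HI M1 the highest, with the rest intermixed. Its log2 difference of -0.11 had a 95% interval of -0.56 to 0.34 (limma, adjusted p = 0.809). The 2 glucose carriers were also set against each other inside each library, a readout chosen after the values were seen and one that library scaling cannot move. Slc2a3 over Slc2a1 was 3.07, 2.55, 2.63 and 1.9 in LO F1, F2, M1 and M2, against 1.06, 1.22, 0.773 and 1.93 in HI F1, F2, M1 and M2. Between these 2 genes, Slc2a3 was the higher in the LO libraries and the 2 were nearly balanced in 3 HI libraries, with HI M2 at the level of LO M2. The ratio leaves out other hexose carriers, of which Slc50a1 had 176 to 268 FPKM in LO and 232 to 378 FPKM in HI libraries. The log2 ratio differed by 1.08 between LO and HI (exact permutation test, two-sided p = 0.0571; p = 0.286 adjusted over the 5 ratios computed).

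**Figure D2:**
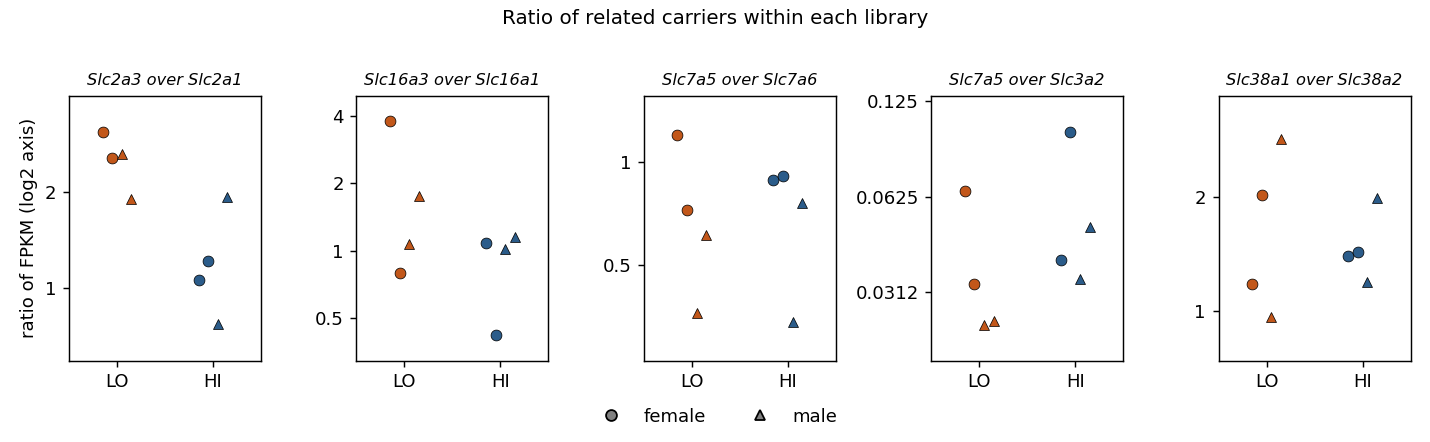
Ratio of FPKM between related carriers within each library on a log2 axis, LO left of HI, females as circles and males as triangles. Slc2a3 over Slc2a1 lies between 1.9 and 3.07 in LO and between 0.773 and 1.93 in HI libraries, and the other 4 ratios overlap more widely.

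Lactate carriers were low in both groups. Slc16a1 (ENSMUSG00000032902), whose protein MCT1 moves lactate in either direction, had 4.49, 7.94, 5.36 and 5.94 FPKM in LO F1, F2, M1 and M2, against 8.47, 8.65, 7.54 and 6.56 FPKM in HI F1, F2, M1 and M2. LO F1, LO M1 and LO M2 lay below every HI library, and LO F2 stood above HI M1 and HI M2. Its log2 difference was -0.36 with an interval of -0.97 to 0.25 (limma, adjusted p = 0.513). Among the 6 members with a promoter searched, only Slc16a1 held an E-box there. The part of that E-box in these values was not tested.

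Slc16a3 (ENSMUSG00000025161), the lactate exporter MCT4 of glycolytic cells, had 17.0, 6.34, 5.76 and 10.4 FPKM in LO F1, F2, M1 and M2, against 9.15, 3.63, 7.66 and 7.54 FPKM in HI F1, F2, M1 and M2. LO F1 was the highest library and HI F2 the lowest, and LO F2 and LO M1 lay within the HI range. The log2 difference of 0.39 had a wide interval of -0.5 to 1.27 (limma, adjusted p = 0.644). Slc16a3 over Slc16a1 ran from 0.798 to 3.8 in LO and from 0.42 to 1.15 in HI libraries, a difference of 0.86 in the log2 ratio (exact permutation test, two-sided p = 0.257; p = 0.428 adjusted over the 5 ratios).

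The amino acid exchanger LAT1 was the scarcest member and its heavy chain CD98 was abundant. Slc7a5 (ENSMUSG00000040010) had 4.46, 2.68, 1.82 and 2.63 FPKM in LO F1, F2, M1 and M2, against 3.28, 7.45, 3.44 and 3.12 FPKM in HI F1, F2, M1 and M2. One HI library, F2, stood above all others, and LO F1 above the other 3 HI libraries. After division by the value of 1 fragment in each library, these values came out within 0.02 of whole numbers: 10, 6, 5 and 38 in the LO and 9, 26, 6 and 7 in the HI libraries, in the same order. If these are fragments, 5 of them leave an exact Poisson 95% interval of 0.592 to 4.26 FPKM around the 1.82 FPKM of LO M1, which covers counting error only. The log2 difference was -0.42 with an interval of -1.23 to 0.39 (limma, adjusted p = 0.576).

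Slc3a2 (ENSMUSG00000010095) had 68.3, 80.6, 73.8 and 103 FPKM in LO F1, F2, M1 and M2, against 83.1, 74.3, 99.7 and 62.1 FPKM in HI F1, F2, M1 and M2. The groups were fully intermixed. The log2 difference was 0.03 with an interval of -0.41 to 0.47 (limma, adjusted p = 0.953), or 0.753-fold to 1.39-fold in FPKM + 1. Slc7a5 stood at 0.0247 to 0.0653 of the Slc3a2 level in LO and at 0.0344 to 0.1 of it in HI libraries, and these ranges overlapped.

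Slc7a6 (ENSMUSG00000031904), a light chain of CD98 that exchanges arginine and neutral amino acids, had 3.72, 3.72, 5.07 and 4.3 FPKM in LO F1, F2, M1 and M2, against 3.72, 8.23, 10.1 and 4.13 FPKM in HI F1, F2, M1 and M2. HI F2 and HI M1 were high, while HI F1 and HI M2 lay with the LO libraries. Its values came out as 9, 9, 15 and 67 fragments in LO and 11, 31, 19 and 10 fragments in HI libraries, so the equal FPKM of LO F1 and LO F2 rests on few fragments. The log2 difference was -0.45 with an interval of -1.24 to 0.34 (limma, adjusted p = 0.536).

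Slc1a5 (ENSMUSG00000001918), the sodium-coupled glutamine carrier ASCT2, was the most abundant member. It had 196, 232, 200.3 and 279.9 FPKM in LO F1, F2, M1 and M2, against 184.7, 188, 146 and 222 FPKM in HI F1, F2, M1 and M2. LO F1 and LO M1 lay within the HI range, and LO F2 and LO M2 lay above every HI library. The log2 difference of 0.29 had an interval of -0.1 to 0.68 (limma, adjusted p = 0.386).

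The sodium-coupled neutral amino acid carriers Slc38a1 and Slc38a2 (Slc38a2 is induced by amino acid shortage) overlapped between the groups. Slc38a1 (ENSMUSG00000023169) had 19.0, 22.6, 13.0 and 26.4 FPKM in LO F1, F2, M1 and M2, against 19.9, 17.6, 22.3 and 17.6 FPKM in HI F1, F2, M1 and M2. The LO libraries held both the lowest and the highest value. Slc38a2 (ENSMUSG00000022462) had 16.2, 11.2, 13.5 and 9.31 FPKM in LO F1, F2, M1 and M2, against 14.3, 12.3, 18.6 and 8.9 FPKM in HI F1, F2, M1 and M2. For Slc38a2, library M2 was the lowest in LO and also in HI. The log2 differences were 0.02 for Slc38a1 (interval -0.54 to 0.59; limma, adjusted p = 0.972) and -0.08 for Slc38a2 (interval -0.73 to 0.56; limma, adjusted p = 0.909).

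**Figure D3:**
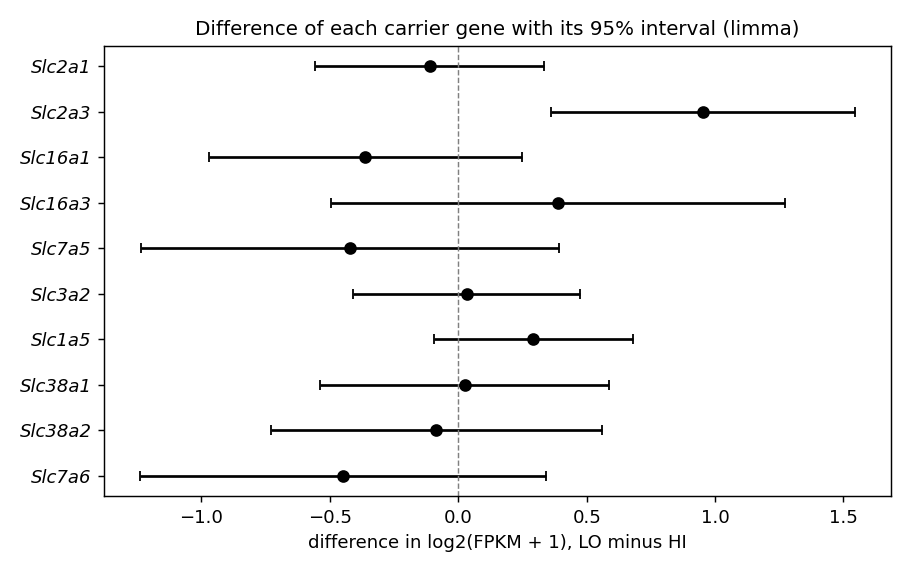
Difference in log2(FPKM + 1), LO minus HI, of each carrier gene (points) with its 95% limma interval (bars). The interval of Slc2a3 runs from 0.36 to 1.54 before adjustment over all genes, and those of the other 9 members include 0.

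Because FPKM is per length, levels can be ordered across members. By the mean of the 8 libraries the order was Slc1a5 (206 FPKM), Slc3a2 (80.6), Slc2a3 (69.9), Slc2a1 (37.9), Slc38a1 (19.8), Slc38a2 (13.0), Slc16a3 (8.44), Slc16a1 (6.87), Slc7a6 (5.37) and Slc7a5 (3.61). Slc1a5 exceeded Slc3a2, and Slc2a1 exceeded Slc38a1, in 8 of 8 libraries. Slc3a2 was above Slc2a3 in 1 of 4 LO and 3 of 4 HI libraries, a split that was not tested. Slc38a2 exceeded Slc16a3, and Slc16a3 exceeded Slc16a1, in 6 of 8 libraries. The other neighbours kept their order in 7 of 8.

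No interaction of sex with reporter level was detected among the carriers. It had an adjusted p of 0.999 in all 10 members (limma), and 0 of 10 passed an unadjusted p of 0.05, against 3.83% of all genes. Over all genes 2 (0.0178%) passed, the receptor segment Traj56 and the pseudogene Mpc1-ps. With 2 libraries a sex in each group, the standard error of the interaction was 0.396 to 0.853 on the log2 scale among the members, which bounds the size of a sex difference that could be detected.

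Relatives of these carriers were read from lists of the pathway. Calls in each list below stand against the 8.29% called among all tested genes. Among 16 other monocarboxylate carriers and ancillary proteins, 6 were tested, of which 2 rose, 1 fell and 3 did not pass; the list's median log2 difference was 0.23. Slc16a5, which encodes MCT6, had 5.63, 0.791, 1.29 and 1.4 FPKM in LO F1, F2, M1 and M2, against 14.0, 20.2, 10.8 and 12.3 FPKM in HI F1, F2, M1 and M2. It fell in LO cells, with a ratio of mean FPKM of 0.159 (log2 difference -2.39; limma, adjusted p = 0.0079) and no overlap between groups. Slc16a6, or MCT7, a ketone body exporter in zebrafish liver, rose to 30.2, 18.9, 17.2 and 21.1 FPKM in LO F1, F2, M1 and M2, against 5.54, 12.2, 7.15 and 8.37 FPKM in HI F1, F2, M1 and M2 (log2 difference 1.31; limma, adjusted p = 0.0222). Emb, or embigin, a membrane glycoprotein that accompanies monocarboxylate carriers, rose to 199 ± 14.9 FPKM in LO, against 126 ± 16.2 FPKM in HI cells (SD, n = 4 each; limma, adjusted p = 0.018). Slc16a5 passed under all 19 alternatives tried, whereas Slc16a6 missed the threshold under 7 of them (adjusted p = 0.0502 to 0.105), and Emb under 4 (0.0628 to 0.0688). Leaving out LO F1, LO F2, LO M2, HI F1 or HI M1 was enough for Slc16a6, and leaving out LO F2 or HI F2 was enough for Emb.

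**Figure D4:**
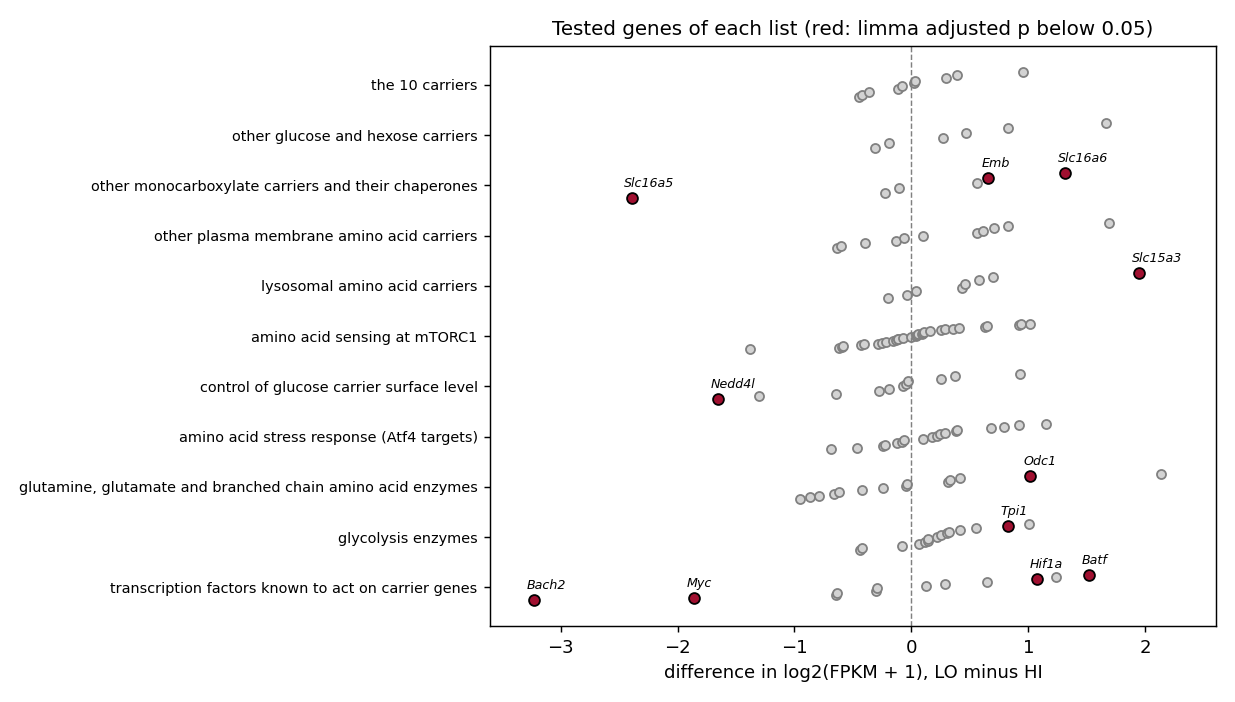
Difference in log2(FPKM + 1), LO minus HI, of every tested gene of the carrier and pathway lists, 1 list per row. Red points with names passed limma with adjusted p below 0.05; no carrier of the top row is among them, while Slc16a5 at -2.39 and Slc15a3 at 1.95 lie far from 0.

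Other hexose carriers gave no call, with 0 of 6 tested members of a list of 14 passing and a median log2 difference of 0.37. Slc2a9, a urate carrier of the GLUT family, had 7.05, 13.5, 5.43 and 6.45 FPKM in LO F1, F2, M1 and M2, against 1.77, 0.856, 6.02 and 0.54 FPKM in HI F1, F2, M1 and M2. Its log2 difference of 1.66 missed the threshold (limma, adjusted p = 0.0799), HI M1 being the library within the LO range, and passed without HI M1 (adjusted p = 0.0153) or with equal sum scaling (0.0398). Slc2a6 (limma, adjusted p = 0.261), Slc50a1 (0.391) and Slc2a8 (0.553) did not pass. Slc2a4, Slc2a5, Slc2a7, Slc2a10, Slc2a13 and Slc5a1 were listed at 0 in all 8 libraries.

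In a list of 38 other amino acid carriers, gathered as those of the plasma membrane, 20 were at 0 in every library. Of the 11 tested, 0 passed (median 0.1). Where each of these carriers sits in the cell was not measured. Slc38a10 averaged 75.8 ± 16.1 FPKM in LO and 45.7 ± 7.59 FPKM in HI cells (SD, n = 4 each; limma, adjusted p = 0.0755), and passed without LO M1 (0.0333) or with equal sum scaling (0.0388). Slc6a6, the taurine carrier, averaged 9.63 ± 2.76 FPKM in LO and 14.8 ± 0.882 FPKM in HI cells without overlap (limma, adjusted p = 0.212). Of 10 carriers of the lysosome 8 were tested and 1 rose (median 0.45), against 8.29% of all genes called. That gene was Slc15a3, a lysosomal carrier of histidine and small peptides, at 6.8, 6.8, 7.79 and 5.59 FPKM in LO F1, F2, M1 and M2, against 0.556, 1.31, 0.874 and 1.36 FPKM in HI F1, F2, M1 and M2. It rose 6.58-fold (log2 difference 1.95; limma, adjusted p = 0.00345) and passed under all 19 alternatives.

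Genes that sense amino acids at mTORC1, the kinase complex that couples nutrients to growth, gave 0 calls among 31 tested of 32 (median 0.04). Sesn2, a leucine sensor that restrains mTORC1, averaged 7.63 ± 1.19 FPKM in LO and 3.72 ± 1.66 FPKM in HI cells (SD, n = 4 each; limma, adjusted p = 0.121). At an unadjusted p below 0.05, 4 of the 31 passed, Sesn2 among them, against 20.9% of all genes. Targets of Atf4, the factor of the amino acid shortage response, gave 0 calls among 18 tested of 23 (median 0.2), with 3 of 18 (Sesn2, Eif4ebp1 and Asns) below an unadjusted 0.05, against 20.9% of all genes. Of 14 tested enzymes of glutamine, glutamate and related amino acids 1 was called (median -0.14), against 8.29% of all genes. Odc1, which makes the polyamine putrescine, rose to 59.7 ± 11.7 FPKM in LO, against 29.5 ± 8.44 FPKM in HI cells (SD, n = 4 each), with adjusted p = 0.0318 (limma). That call was lost under 9 of 19 alternatives (adjusted p = 0.0508 to 0.116), 6 of which left out 1 library (LO F1, LO F2, LO M2, HI F1, HI F2 or HI M1). Of 15 tested glycolysis enzymes 1 was called (median 0.22), against 8.29% of all genes. Tpi1 rose to 134 ± 6.59 FPKM in LO, against 75.9 ± 8.68 FPKM in HI cells (SD, n = 4 each), with adjusted p = 0.0059 (limma). Odc1 and Tpi1 have processed pseudogenes, and how shared reads were counted is not given in the sources used here.

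Genes that set the surface level of glucose carriers gave 1 call among 11 tested of 12 (median -0.08), against 8.29% of all genes called. Nedd4l, a ubiquitin ligase that acts on membrane channels and carriers, fell to 1.52, 0.95, 1.35 and 1.92 FPKM in LO F1, F2, M1 and M2, against 6.22, 9.16, 4.88 and 6.65 FPKM in HI F1, F2, M1 and M2 (log2 difference -1.65; limma, adjusted p = 0.0094). Arrdc2 (adjusted p = 0.153), Tbc1d4 (0.17) and Mlx (0.182) did not pass.

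Factors known to act on carrier genes were called in both directions. Of 12 tested, 2 rose and 2 fell (median -0.08), against 8.29% of all genes called. Bach2 is among those that fell, but its reporter set the sort gates. It also entered the test through HI alone, with 0.447 to 0.894 FPKM in LO libraries. Apart from Bach2, Myc fell, and Hif1a and Batf rose. Myc, a driver of growth after T cell activation, fell by 1.86 on the log2 scale (limma, adjusted p = 0.000485). It had 25.7, 29.6, 27.5 and 35.1 FPKM in LO F1, F2, M1 and M2, against 134.8, 107, 112 and 86.4 FPKM in HI F1, F2, M1 and M2. For Myc, HI M2 was the HI library nearest to LO. Hif1a, the oxygen-regulated factor, had 141, 151, 98.4 and 130.2 FPKM in LO F1, F2, M1 and M2, against 45.9, 64.4, 71.1 and 63.9 FPKM in HI F1, F2, M1 and M2. It rose by 1.07 on the log2 scale (limma, adjusted p = 0.00804) without overlap, and HI M1 was the HI library nearest to LO. Batf, an AP-1 factor of effector T cells, averaged 277 FPKM in LO and 96.7 FPKM in HI cells (limma, adjusted p = 0.000295). Atf4 itself was not among the calls.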

How the data were processed

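RNA was sequenced from 8 SmartSeq2 libraries, per the labels' protocols, and groups follow the sample titles. The deposited table holds FPKM values, 1 column per library, made by the authors with Cuffnorm, per the name of the table. Per the submitters' processing notes, the tools include HISAT2, FastQC and cutadapt, and the builds named are mm9 and NCBIM37. Scaling method, annotation, use of strand and tool versions: not given in the sources used here. The series design text describes another experiment and was not used.

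Gene symbols came by Ensembl ID from a GENCODE M21 name table (31840 of 36811 IDs matched), and all 270 list entries matched. A gene was tested if 4 or more libraries reached 1 FPKM. The model was limma 3.58.1 (R 4.3.3) on log2(FPKM + 1), eBayes with trend, and p was adjusted over all 11260 genes by Benjamini-Hochberg. Fold changes on this scale understate low genes; ratios are of mean FPKM. Exact permutation tests used scipy 1.17.1. The fits were also run on simulated normal values with the same spread in every library. That run did not cover differences in depth, and its outcome is not given here. FPKM summed to between 1494240 and 2142813 in a library, so sums are not depths; relative depth is the most frequent ratio to HI F1 among gene models under 2 FPKM in every library, and fragments were accepted where all 8 values lay within 0.02 of whole numbers.

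The members, lists and tests were chosen with earlier results of these data known. Named are the members, Bach2, Foxp3 and up to 4 genes with the smallest p from each list (2 for markers); genes listed at 0, Atf4 and single marker genes beyond these were named after their values were seen. A gene that the rule names is not reported here. The rule's search for genes with a similar pattern applied to called members, of which there were 0. Protein comparisons were not made. Tried as alternatives were the replicate label as a block, sex in the model, leaving out libraries, eBayes robust or without trend, scaling by quantiles, the upper quartile or an equal sum, filtering at 5 FPKM or not at all, and 0.1 as the pseudocount.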

Additional observations from a re-analysis of the deposited data

Results flagged for a closer look

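Of 20 sets of 4 library values (10 carriers in LO and in HI cells), 2 held a library far from the other 3, where chance gives about 1 in 20. Slc2a3 in HI M2 stood at 78.3 FPKM, against 35.3 to 42.6 FPKM in the other HI libraries, and was barely past the limit for such a gap. Slc7a5 in HI F2 stood at 7.45 FPKM, against 3.12 to 3.44 FPKM in the other HI libraries, on 26 fragments by the whole-number reading (exact Poisson 95% interval 4.87 to 10.9 FPKM).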

How the results depend on the processing

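The 19 alternatives gave 642 to 1061 called genes in LO against HI, and 0 of the 10 carriers were called under all but 2 of them: equal sum scaling and leaving out HI M2 each called 1, Slc2a3 (1.17, adjusted p = 0.0189, and 1.2, adjusted p = 0.00913). Equal sum scaling moved the median of all genes by 0.198 on the log2 scale, so that 765 genes were higher and 296 lower in LO, against 524 and 410. It turned Slc2a1 to 0.10 and Slc38a2 to 0.12. Without HI M1 and LO M2 together, chosen after seeing the data, Slc38a1 was at -0.046 and Slc38a2 at 0.20, and 646 genes passed. Leaving out 1 library gave -0.17 to 0.028 for Slc2a1, 0.83 to 1.2 for Slc2a3, -0.086 to 0.15 for Slc3a2, -0.11 to 0.21 for Slc38a1, -0.25 to 0.075 for Slc38a2 and -0.13 to 0.15 for Foxp3, so the sign of each but Slc2a3 depended on 1 library. Without 1 library some others kept their sign and moved by over 1.5 times: Slc16a3 to 0.11 (without LO F1) and 0.15 (HI F2), Slc7a5 to -0.18 (HI F2) and -0.28 (LO M1), Slc7a6 to -0.23 (HI M1), and Slc1a5 to 0.185 (HI M1) and 0.187 (LO M2). Foxp3 was at -0.022, -0.13 and -0.016 without LO F1, LO M1 and HI F2. Leaving out 1 library also gave 642 to 788 genes, 338 to 449 of them higher and 302 to 377 lower in LO, and 1 to 2 genes for the interaction of sex and reporter level, as did no filter with 1 gene. With the replicate block 771 genes passed, 698 of them among the 934, and 0 carriers; it ended the calls of Slc16a6 (adjusted p = 0.0664), Ikzf2 (0.0605) and Fcgr3 (0.0552) and made that of Slc38a10 (0.0467). Deviations from the group means correlated at 0.0149 to 0.113 between same-labelled libraries, 1 of 4 over 0.1. Between LO and HI libraries of unlike label they correlated at -0.0995 to 0.0583. Of the 4 LO libraries, 3 correlated best with their own label. The labels do not say whether same-labelled libraries share an animal, and these weak correlations do not settle it. The filter of 5 FPKM removed Slc7a5 and Slc7a6. Of the 4 members with fragment numbers, Slc7a5 and Slc7a6 had as few as 5 and 9; for the other 6 they could not be read. The causes of these changes were not tested.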
